A study of Rattus norvegicus with 7 samples.

Results

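Transcripts of 10 enzymes that remove superoxide and peroxides were followed in the cerebellum of weanling rats: the glutathione peroxidases Gpx1 and Gpx4, the peroxiredoxins Prdx1, Prdx2, Prdx3, Prdx5 and Prdx6, the superoxide dismutases Sod1 and Sod2, and catalase (Cat). They were found by matching the accession of each array probe to these gene symbols. All 10 had a probe, 11 probes in all since Gpx4 had 2, out of 11966 named genes and 8025 unnamed probes that could be tested. Each of the 11 probes was well above background on all 7 arrays, and none was saturated.

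The pups were female Wistar rats aged 21 days, and RNA was taken from ground cerebellum. Dams of the CTRL pups (n = 4) ate a standard diet, and dams of the MDD pups (n = 3) ate a methyl donor deficient diet, poor in folate and vitamin B12, with choline lowered too. Both diets ran from 1 month before pregnancy to weaning, and the labels name a different supplier for each. Because the labels do not tie pups to dams, p-values measure the spread between pups, which may share a litter.

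Superoxide leaks from the respiratory chain and is made by oxidases. Superoxide dismutases turn it into hydrogen peroxide, which catalase, glutathione peroxidases and peroxiredoxins then reduce to water. Glutathione peroxidases draw electrons from glutathione, whose cysteine can come from homocysteine through transsulfuration, and most peroxiredoxins draw them from thioredoxin. Gpx1 and Gpx4 are selenoproteins, and Gpx4 is the one that reduces phospholipid hydroperoxides in membranes and holds back ferroptosis.

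The sequence before the start site is shown for Gpx1, Gpx4 and Cat, which were called in all 16 analyses made without a block, and for Prdx1, a classic target of the transcription factor NRF2, for contrast. These are the 250 bases upstream of the start, 5′ to 3′ on the gene's strand, from RefSeq on assembly GRCr8. Gpx1 lies at chr8:117905212-117905461 on the plus strand, Gpx4 at chr7:10303630-10303879 on the minus strand (the most upstream of 3 listed starts), Cat at chr3:110329527-110329776 on the minus strand and Prdx1 at chr5:135383656-135383905 on the plus strand. Capitals mark matches on either strand to any of 4 motifs. TGACNNNGC is the core of the antioxidant response element, which NRF2 binds. CCAAT is the CCAAT box, GGGCGG is the GC box and TATAAA is the TATA box.
Gpx1: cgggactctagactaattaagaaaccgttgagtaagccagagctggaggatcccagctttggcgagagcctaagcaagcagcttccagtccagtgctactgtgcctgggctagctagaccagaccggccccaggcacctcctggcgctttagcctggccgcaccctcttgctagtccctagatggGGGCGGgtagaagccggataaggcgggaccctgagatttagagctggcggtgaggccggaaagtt
Gpx4: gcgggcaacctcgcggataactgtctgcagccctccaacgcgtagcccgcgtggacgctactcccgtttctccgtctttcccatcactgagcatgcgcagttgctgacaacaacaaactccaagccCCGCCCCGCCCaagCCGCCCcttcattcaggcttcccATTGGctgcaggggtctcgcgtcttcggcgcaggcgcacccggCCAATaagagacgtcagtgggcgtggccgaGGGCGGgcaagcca
Cat: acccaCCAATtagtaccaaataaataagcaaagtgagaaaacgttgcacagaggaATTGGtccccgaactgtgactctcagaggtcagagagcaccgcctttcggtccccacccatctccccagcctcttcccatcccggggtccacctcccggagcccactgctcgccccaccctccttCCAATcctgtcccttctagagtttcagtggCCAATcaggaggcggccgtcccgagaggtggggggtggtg
Prdx1: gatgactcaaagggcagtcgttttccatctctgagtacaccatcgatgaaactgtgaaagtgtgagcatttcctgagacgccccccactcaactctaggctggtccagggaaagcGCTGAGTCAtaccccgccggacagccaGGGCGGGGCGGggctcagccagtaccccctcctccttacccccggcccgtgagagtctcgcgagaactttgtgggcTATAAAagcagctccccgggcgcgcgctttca

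An entry was found for 9 of the 10 genes, with 11 windows in all. A gene was counted if any of its windows held the motif. The shares set beside these counts are per window and are not matched for GC content. The antioxidant response core was present in 2 of the 9, Prdx1 (GCTGAGTCA, beginning 135 bases before the start) and Sod2 (GCAGGGTCA, beginning 35 bases before it), against 10.1% of 33469 such windows. GGGCGG was present in 8 of 9 genes, all but Cat, against 30.5% of windows. The Cat window instead held 4 CCAAT matches, and CCAAT occurred in 3 of 9 genes (Cat, Gpx4 and Sod1) against 34% of windows. TATAAA lay in Prdx1 and Sod1, against 12.9% of windows. GC content was 59.2% for Gpx1, 64.8% for Gpx4, 58.8% for Cat and 60% for Prdx1, against a median of 51.2%. TGACNNNGC was not among the letters of the Gpx1, Gpx4 and Cat windows, which says nothing of the factor.

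For each gene called, the text gives the value in each pup, the group means with SD, the difference on the log2 scale with its standard error (SE), the fold, and an adjusted p from limma, by the method of Benjamini and Hochberg over the 19991 features tested. Levels are log2 signals relative to the array's 75th percentile, so a level of 0 is the signal of that percentile. A transcript is called higher or lower below an adjusted p of 0.05. Levels of different genes come from different probes, so their order is no order of transcript abundance, also where genes are binned by signal or marker levels are summed.

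In the MDD cerebellum 5 of the 10 transcripts were higher (Gpx1, Gpx4, Prdx5, Prdx2 and Sod1), 1 was lower (Cat) and 4 were not called (Prdx1, Prdx3, Prdx6 and Sod2). Over everything tested 20.6% was called, 12.6% higher and 7.96% lower. The median difference of the 10 transcripts was 0.49 on the log2 scale, beside -0.03 over everything tested. Values of the groups did not overlap for 7 of the 10, beside 36.6% of all features. Of these, 6 lay above and 1 below, beside 19.9% and 16.7%. Only Gpx1 and Gpx4 differed by at least 2-fold.

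**Figure D1:**
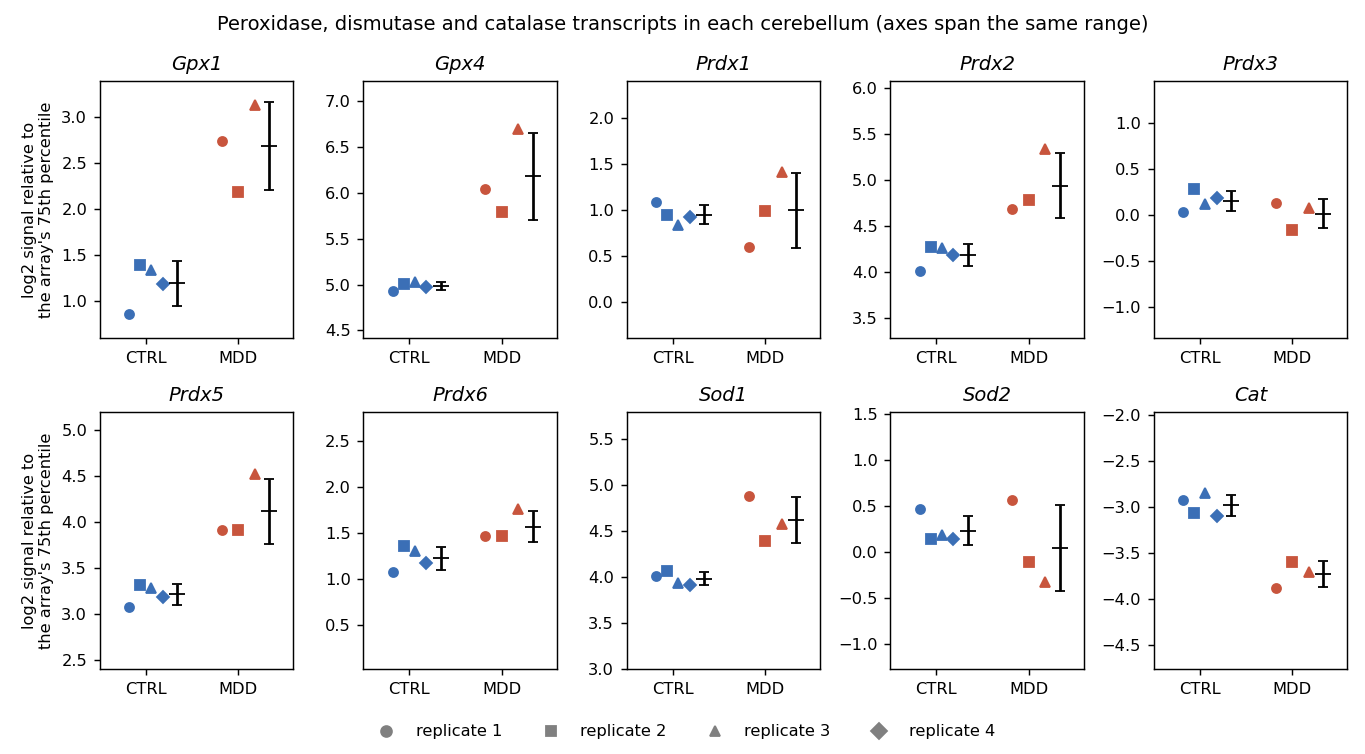
Level of each of the 10 transcripts in each pup (vertical axis: log2 signal relative to the array's 75th percentile, every panel spanning the same range), with group mean and SD as the bar beside the points. Gpx1, Gpx4, Prdx2, Prdx5, Prdx6 and Sod1 lie wholly higher in the 3 MDD pups, Cat lies wholly lower, and Prdx1, Prdx3 and Sod2 overlap between diets.

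Gpx1, the abundant cytosolic and mitochondrial peroxidase of hydrogen peroxide, showed the largest difference of the 10. Its level was 0.86, 1.40, 1.34 and 1.19 in the CTRL pups and 2.74, 2.18 and 3.13 in the MDD pups. Every MDD pup stood above every CTRL pup, with CTRL 1 the lowest of all and MDD 3 the highest. The array of MDD 3 had the lowest 75th percentile of the 7 (1136 units), which raises its scaled levels. Before scaling, the median Gpx1 spot read 10080 units in MDD 3 and 11320 in MDD 1. The means were 1.19 ± 0.24 (SD, n = 4) and 2.69 ± 0.48 (SD, n = 3). The difference was 1.49 with an SE of 0.23, a 2.81-fold higher signal, with a limma adjusted p of 0.0105 and a 95% interval of 0.96 to 2.02.

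Within each array the Gpx1 probe is printed on 10 spots, of which 8 to 10 remained per array after outlier flags. The SD between spots was 0.05 to 0.09, far below the spread between pups. Over all 68 spots the highest CTRL spot read 1.49 and the lowest MDD spot 2.07, so the groups did not overlap at single spots either. Spots share an RNA extract and are no replicates of the diet.

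Gpx4 is the phospholipid hydroperoxide peroxidase. Its CTRL pups lay close together at 4.93, 5.01, 5.03 and 4.97, while the MDD pups spread over 6.04, 5.79 and 6.70. MDD 3 was highest and MDD 2 was lowest of the MDD pups, in the same order as for Gpx1. The means were 4.98 ± 0.04 (SD, n = 4) and 6.18 ± 0.47 (SD, n = 3), a 2.29-fold higher signal. The difference of 1.19 (SE 0.20) had a limma adjusted p of 0.0111 and a 95% interval of 0.73 to 1.66.

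A second Gpx4 probe, printed on 1 spot, read 2.80, 2.99, 2.92 and 2.77 in CTRL pups and 4.07, 3.66 and 4.72 in MDD pups. Its difference was 1.28, again with no overlap and with MDD 3 highest. The size of the Gpx4 difference depended on the scaling: it was 1.49-fold after quantile normalization (limma adjusted p = 0.0266) and 1.59-fold in the authors' deposited table (limma adjusted p = 0.0129). Under each of these it stayed past the threshold.

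**Figure D2:**
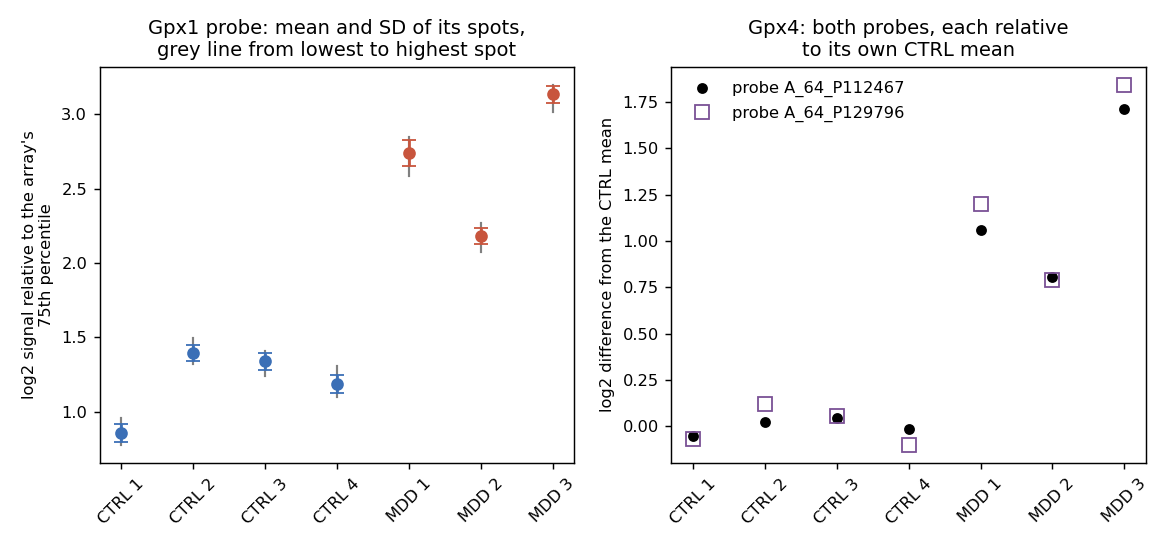
Left: Gpx1 on each array (vertical axis: log2 signal relative to the array's 75th percentile), as the mean and SD over its 8 to 10 spots with the range of single spots in grey. Right: both Gpx4 probes as log2 difference from their own CTRL mean. Spots of an array lie closer to each other than pups do, and both Gpx4 probes place the 3 MDD pups above all CTRL pups.

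Prdx5, a peroxiredoxin of mitochondria, peroxisomes and cytosol, stood at 3.07, 3.32, 3.29 and 3.18 in CTRL pups and at 3.91, 3.91 and 4.53 in MDD pups. The groups did not overlap, and MDD 3 was again the highest. Means of 3.22 ± 0.11 (SD, n = 4) and 4.12 ± 0.36 (SD, n = 3) gave a difference of 0.90 (SE 0.17), or 1.87-fold, with a limma adjusted p of 0.0149. Without CTRL 4 the adjusted p was 0.0506, in a fit that called 5.06% of all features.

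Prdx2, the cytosolic peroxiredoxin that is abundant in neurons and in red blood cells, read 4.01, 4.28, 4.26 and 4.19 in CTRL pups against 4.68, 4.79 and 5.34 in MDD pups. Its groups were also apart, with CTRL 1 lowest and MDD 3 highest. The means were 4.18 ± 0.12 (SD, n = 4) and 4.94 ± 0.35 (SD, n = 3), a difference of 0.75 (SE 0.18), or 1.69-fold, with a limma adjusted p of 0.0241. This call was lost without any 1 of the CTRL pups (adjusted p 0.0597, 0.0513, 0.0558 and 0.0666 without CTRL 1, 2, 3 and 4). It was also lost after quantile normalization, where the difference was 0.25, and in the authors' deposited table, where it was 0.27 and the groups overlapped.

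The other 3 peroxiredoxins were not called. Prdx6, which reduces peroxidized phospholipids and uses glutathione, read 1.07, 1.35, 1.30 and 1.17 in CTRL pups and 1.47, 1.47 and 1.77 in MDD pups. The groups did not overlap, yet the difference of 0.34 (SE 0.13, interval 0.04 to 0.65) had a limma adjusted p of 0.0952. Prdx1, a cytosolic and nuclear enzyme, read 1.08, 0.95, 0.83 and 0.92 in CTRL pups and 0.60, 0.98 and 1.41 in MDD pups. MDD 1 lay below all CTRL pups and MDD 3 above all of them, so that the mean difference was 0.05 (SE 0.19, interval -0.38 to 0.48, limma adjusted p = 0.861).

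Prdx3, a mitochondrial peroxiredoxin, read 0.03, 0.29, 0.12 and 0.19 in CTRL pups and 0.13, -0.17 and 0.07 in MDD pups. Only MDD 2 left the CTRL range. The difference was -0.14 (SE 0.13, interval -0.43 to 0.15, limma adjusted p = 0.426).

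Sod1, the copper and zinc dismutase of the cytosol, read 4.01, 4.06, 3.93 and 3.90 in CTRL pups and 4.88, 4.39 and 4.57 in MDD pups. Here the order of the MDD pups was another one, with MDD 1 highest. Means of 3.98 ± 0.07 (SD, n = 4) and 4.62 ± 0.25 (SD, n = 3) differed by 0.64 (SE 0.14), or 1.56-fold, with a limma adjusted p of 0.0210. The call was lost without CTRL 3 (adjusted p = 0.0592, with 7.11% of all features called) and without CTRL 4 (adjusted p = 0.0655). Quantile normalization left a difference of 0.16 and the authors' deposited table one of 0.17 with overlapping groups, neither past the threshold.

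Sod2, the manganese dismutase of the mitochondrial matrix, read 0.46, 0.13, 0.19 and 0.13 in CTRL pups and 0.57, -0.12 and -0.33 in MDD pups. MDD 1 was above every CTRL pup, and the other MDD pups were below every CTRL pup. The difference was -0.19 (SE 0.21, interval -0.68 to 0.30, limma adjusted p = 0.544). The interval for Sod2 was wide enough to hold both a fall and a rise.

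Cat, the peroxisomal enzyme that splits hydrogen peroxide without a reducing partner, was the only one of the 10 called lower. It read -2.92, -3.06, -2.84 and -3.09 in CTRL pups and -3.88, -3.59 and -3.70 in MDD pups. Every MDD pup stood below every CTRL pup, MDD 1 lowest. The means were -2.98 ± 0.12 (SD, n = 4) and -3.73 ± 0.15 (SD, n = 3). The difference was -0.75 (SE 0.13, interval -1.04 to -0.46), a 1.68-fold lower signal with a limma adjusted p of 0.0111.

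In the authors' deposited table, whose linear intensities carry only group names, Cat was 256.7, 247.9, 286.5 and 261.9 under CTRL and 179.5, 197.2 and 186.8 under MDD. Gpx1 in the same deposited table was 2915, 4395, 4219 and 3755 under CTRL and 9643, 6927 and 13170 under MDD. In the authors' deposited table the groups were apart for 4 of the 10 genes (Gpx1, Gpx4 and Prdx5 above, Cat below), beside 34.6% of all features. Calls on the authors' deposited table covered Gpx1, Gpx4, Prdx5 and Cat, beside 20.8% of all features, and the same 4 were called after quantile normalization, beside 18.5%. Without the filter on dim probes they were again these 4, beside 5.82%.

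**Figure D3:**
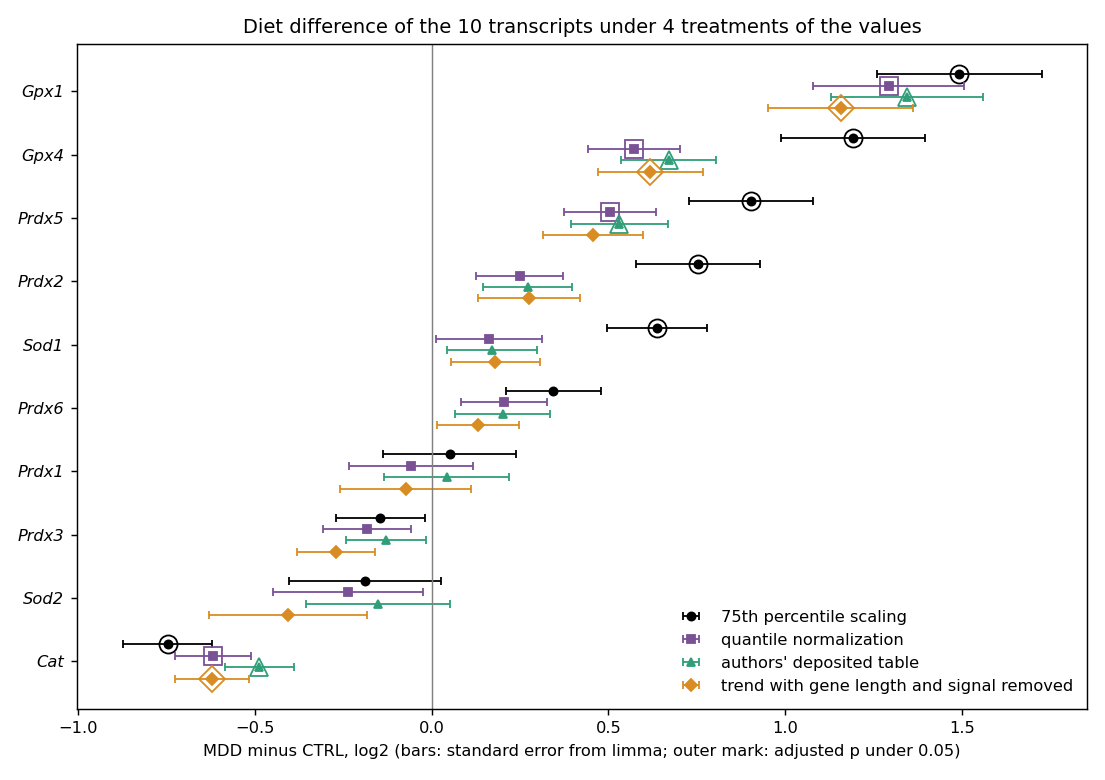
MDD minus CTRL difference (log2, horizontal axis) of the 10 transcripts with its SE from limma, under 4 treatments of the values, an outer mark showing an adjusted p under 0.05. Gpx1, Gpx4 and Cat carry the mark in each, while Prdx2 and Sod1 carry it only with scaling to the 75th percentile.

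Gene length and signal moved with the diet difference across all genes. With the named genes in 10 bins of equal size by genomic length, the median log2 difference went from 0.21 in the bin of shortest genes and 0.25 in the next bin to -0.26 in the longest. Gpx1, at 1127 bases, and Gpx4, at 2797 bases, lie in the first length bin. Prdx2, Prdx5 and Sod1 lie in the second, and Cat, at 32187 bases, lies in the seventh.

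With the genes in 10 bins by signal, Gpx4, Prdx2, Prdx5 and Sod1 lie in the highest bin, whose median difference was 0.26. Gpx1 lies in the ninth, together with Prdx6, which was not called, and the median difference there was 0.09. Cat lies in the third, where the median was -0.10. With both trends removed from every array, Gpx1 kept a difference of 1.16 (SE 0.21, limma adjusted p = 0.0261), Gpx4 one of 0.62 (SE 0.15, limma adjusted p = 0.0385) and Cat one of -0.62 (SE 0.10, limma adjusted p = 0.0241).

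Those 3 were the only calls among the 10 after this step, beside 11.5% of 11966 named genes. The adjusted p was then 0.0684 for Prdx5, 0.217 for Prdx2 and 0.341 for Sod1, with differences of 0.46, 0.27 and 0.18.

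**Figure D4:**
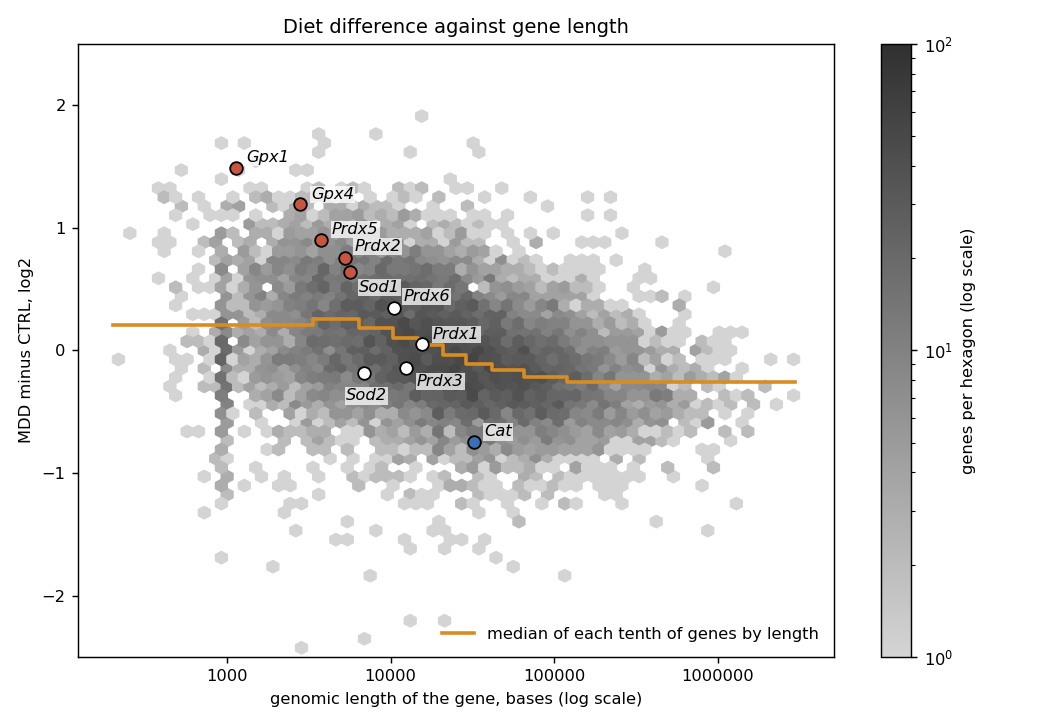
MDD minus CTRL difference (log2) against genomic gene length (bases, log scale), with all named genes as hexagons shaded by number, the median of each length bin as a line, and the 10 transcripts as points (red called higher, blue called lower, white not called). The line goes from 0.21 in the shortest bin to -0.26 in the longest, and Gpx1 and Gpx4 lie farthest from it among the 10.

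The array layout shares part of the comparison. All arrays lie on 1 slide, with 3 CTRL arrays in its first row and CTRL 4 in the second row beside the 3 MDD arrays. Within the second row, CTRL 4 against the MDD pups gave differences of 1.50 for Gpx1, 1.21 for Gpx4, 0.94 for Prdx5, 0.75 for Prdx2, 0.71 for Sod1 and -0.63 for Cat. With the row as a block none of the 6 calls passed (limma adjusted p 0.140 to 0.213), beside 0.005% of all features, the lone CTRL pup of that row being assumed to vary like the others.

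The list counts that follow stand beside 12.6% of all features called higher and 7.96% called lower. Among 7 measured relatives of the same families, Prdx4 and Gpx7 rose and none fell, and the list median was 0.33. Prdx4, the peroxiredoxin of the endoplasmic reticulum, rose 2.23-fold (1.16, SE 0.19, limma adjusted p = 0.0107), and by 1.11 with the trends removed (limma adjusted p = 0.0220). Gpx7, another enzyme of that compartment, rose 1.81-fold (limma adjusted p = 0.0397), and its adjusted p was 0.0590 with the trends removed. Gpx2, well above background in 3 of 4 CTRL pups, differed by 1.03 with a large SE of 0.50, Gpx3 by 0.33 and the extracellular dismutase Sod3 by 0.15, none of them past the threshold.

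Of 27 measured genes of glutathione synthesis, reduction and transfer, 8 were higher and none lower, with a median of 0.34. Mgst3, a microsomal enzyme with glutathione transferase and peroxidase activity, rose 2.08-fold (limma adjusted p = 0.0106). Gstp1, a cytosolic transferase, rose by 0.74 (limma adjusted p = 0.0283), and Glrx5, a mitochondrial glutaredoxin of iron-sulfur assembly, by 0.75 (limma adjusted p = 0.0331). The remaining calls were Ggt1, Gstz1, Mgst1, Gstk1 and Gstm5, from 0.40 to 0.72, with Ggt1 well above background in 3 of 4 CTRL pups. Gclc, the catalytic subunit of the rate-limiting ligase, differed by -0.21, the synthetase Gss by 0.39 (limma adjusted p = 0.0519) and the reductase Gsr by -0.22, none past the threshold, and the other ligase subunit, Gclm, was not measured. With the trends removed Gss was called higher (0.47, limma adjusted p = 0.0379).

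The thioredoxin system had 2 of 12 genes higher, Txn1 (1.65-fold, limma adjusted p = 0.0146) and Txn2 (1.70-fold, limma adjusted p = 0.0378), and none lower. These are the cytosolic and the mitochondrial thioredoxin, which reduce peroxiredoxins. Their reductases Txnrd1 and Txnrd2 differed by -0.42 and 0.37, and sulfiredoxin (Srxn1), which repairs over-oxidized peroxiredoxins, by 0.15, none past the threshold. On its other probe Txnrd1 differed by -0.007. With the trends removed Txnrd2 was called higher (0.52, limma adjusted p = 0.0317). The list median was 0.14, and the 2 higher calls stand beside 12.6% of all features.

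Of 23 genes holding NRF2 (Nfe2l2) and its classic targets, 6 were higher and none lower, with a median of 0.15. The 6 were Tkt and Taldo1 of the pentose phosphate pathway, Gstp1, the aldehyde dehydrogenase Aldh3a1, the aldehyde reductase Akr7a2 and the epoxide hydrolase Ephx1, with differences from 0.44 to 0.84. Nfe2l2 itself differed by -0.07, its inhibitor Keap1 by 0.14, and the targets Hmox1 by 0.35 and Nqo1 by 0.28, none past the threshold. Abcc1, also on this list, differed by -0.60 without passing (limma adjusted p = 0.0731). In the fit without MDD 2 it was called lower (-0.83, limma adjusted p = 0.0192). With the trends removed Hmox1 was called higher (0.44, limma adjusted p = 0.0488). Gclc, Txnrd1, Srxn1 and Prdx1, also well known NRF2 targets, were likewise not called.

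Selenoproteins and their machinery gave 4 higher and none lower of 21, beside 12.6% and 7.96% of all features, with a median of 0.07. Selenoh, a nuclear selenoprotein, rose 2.18-fold (limma adjusted p = 0.00978) and the methionine sulfoxide reductase Msrb1 rose 1.72-fold (limma adjusted p = 0.0138). Selenok rose by 0.54 and the selenocysteine lyase Scly by 0.43. Selenow at 0.71, the selenium carrier Selenop at -0.30 and the selenophosphate synthetase Sephs2 at -0.14 did not pass.

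Metal delivery to the dismutases, peroxisome import and sources of superoxide and peroxide gave 3 higher and none lower of 16. These stand beside 12.6% and 7.96% of all features, and the list median was 0.08. Cyba, the membrane subunit of NADPH oxidases, rose 2.34-fold (limma adjusted p = 0.0111). Atox1, a copper chaperone, rose by 0.71 (limma adjusted p = 0.0176) and the peroxisomal import gene Pex14 by 0.42 (limma adjusted p = 0.0442). Ccs, which loads copper into Sod1, differed by 0.37 and the manganese importer Slc39a14 by -0.93, neither past the threshold. On its other probe Slc39a14 differed by -0.34.

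Across these lists 24 of 100 measured genes (24.0%) were called higher and 0 lower, beside 12.6% and 7.96% of all features, although 6 of those that were lower had an unadjusted p under 0.05 in limma. With the trends removed 13 were called higher and 3 lower, beside 11.5% of named genes called in either direction. Of the 13, 4 had not been called before: Gss (0.47), Txnrd2 (0.52), Hmox1 (0.44) and the selenocysteine elongation factor Eefsec (0.55). The 3 lower were Chac2, which degrades glutathione, Selenop and Sephs2. Another processing also called some lower, for example Secisbp2l, a relative of the selenocysteine insertion factor Secisbp2, at -0.75 after quantile normalization. The median over the 100 was 0.15. The count of 24 changed when a pup was left out: it was 9, 8, 9 and 5 without CTRL 1, 2, 3 and 4, and 11, 28 and 13 without MDD 1, 2 and 3. Over all features the 2526 higher calls moved too, to 1355, 1342, 1066 and 783 without CTRL 1, 2, 3 and 4, and to 1695, 2904 and 1737 without MDD 1, 2 and 3.

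**Figure D5:**
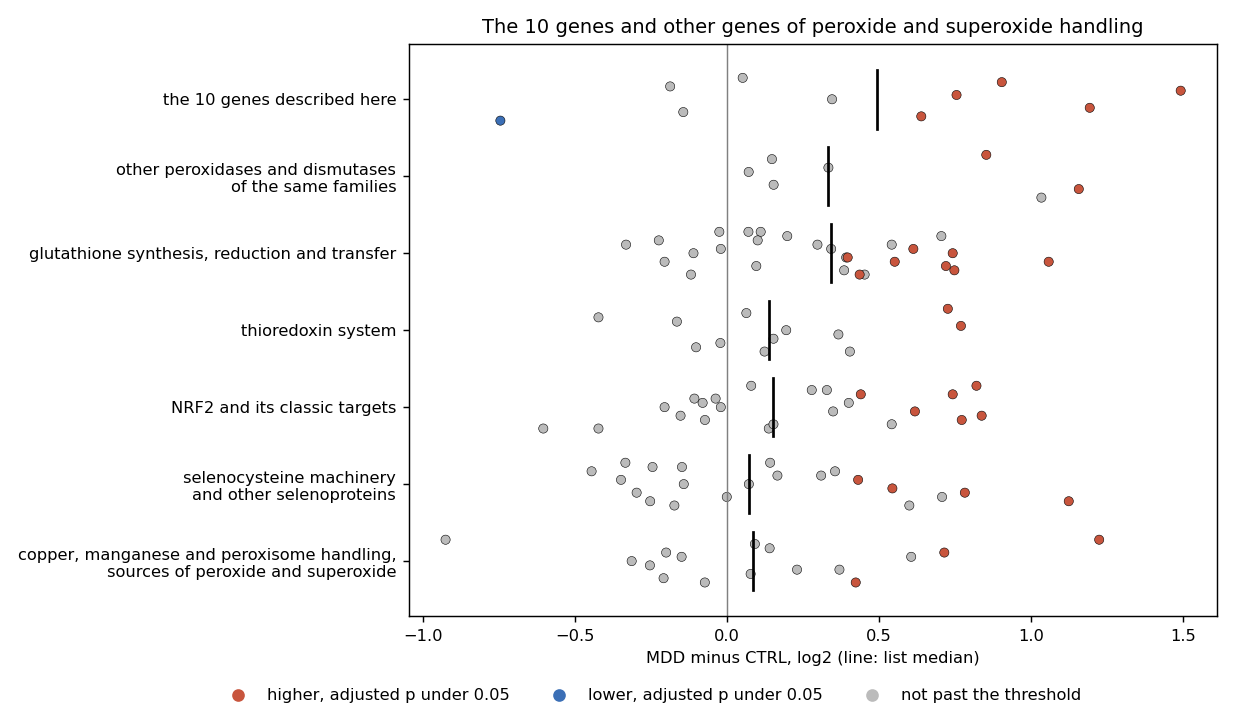
MDD minus CTRL difference (log2, horizontal axis) of each measured gene in the 10-gene set and 6 related lists, red for called higher, blue for called lower and grey for not called, with the list median as a vertical line. Cat is the only blue point, and list medians run from 0.07 for selenoproteins to 0.49 for the 10 genes.

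Some markers of cells that could carry these enzymes also differed. The marker counts that follow stand beside 12.6% of all features called higher and 7.96% called lower. In bulk tissue, fewer cells of a type and less RNA per cell cannot be told apart. Of 14 microglial markers 8 were higher and 1 was lower. Trem2 rose by 1.13, C1qb by 0.93 and Laptm5 by 0.57, and Cx3cr1 fell by 0.90. Csf1r, called higher at 0.60, differed by -0.07 on its other probe, while Aif1 differed by 0.72 and 0.50 on its probes. Their summed level, on the linear scale relative to the 75th percentile, was 16.6 to 17.2 in CTRL pups and 20.8 to 26.1 in MDD pups, and all 14 were well above background on every array. Such a sum mostly follows its brightest markers.

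Red blood cells hold much Prdx2, Gpx1 and catalase. Of their 9 measured markers 1 was higher, the globin Hbb-bs (1.01, limma adjusted p = 0.0302). The globins Hba-a1, Hbb and Hbb-b1 differed by 0.28, 0.80 and 0.84 without passing, and near-identical globin copies may share these probes. The summed level was 134 to 229 in CTRL and 178 to 527 in MDD pups, while Epb42 and Rhag were among 7 listed markers not measured.

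Of 13 granule neuron markers 1 was higher (Calb2, by 0.54) and 4 were lower, with Gabra6 at -0.74 and Kcnd2 at -0.46, while Cbln1 at 0.25 and Neurod1 at -0.39 did not pass. Their summed level was 123 to 130 in CTRL pups and 114 to 130 in MDD pups. Purkinje markers gave 2 higher (Pvalb and Slc1a6) and 2 lower of 11, with a summed level of 204 to 232 in CTRL and 236 to 294 in MDD pups. Itpr1 and Pcp2 differed by -0.21 and 0.50 and did not pass.

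Astrocyte markers gave 1 higher of 11, Aldh1l1, with a summed level of 256 to 276 in CTRL and 304 to 340 in MDD pups. The brightest, Aldoc (mean log2 level 7.48 in CTRL and 7.85 in MDD pups), weighs most in this sum. Its difference was 0.37, or -0.34 with the trends removed, and 0.85 on its other probe. Slc1a3 and Aqp4 differed by -0.06 and -0.20, and Aldoc, Slc1a3 and Aqp4 did not pass. Oligodendrocyte markers gave 2 lower of 13, Ermn and Mobp, with 261 to 278 in CTRL and 246 to 375 in MDD pups, and Mbp and Mag did not pass. Mobp differed by -0.58 on the probe used and by -0.05 on its other probe. For Mbp these values were 0.14 and -0.53. Of 15 choroid plexus and meningeal markers 1, Slc22a6, was higher (113 to 157 in CTRL and 136 to 300 in MDD pups), and Ttr, Igf2 and Col1a2 did not pass. Of 13 vascular markers 1, Cldn5, was higher (8.58 to 10.6 and 10 to 12.1), and Slc2a1 and Kdr did not pass. The part of any of these cells in the enzyme differences was not tested.

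Genes most like Gpx1 in level pattern were ranked by the root mean square distance of their values over the 7 arrays, each centred on its own mean, among 11965 other named genes. Among the 5 nearest were Ccl19 (0.130), Atp5f1e (0.144), Rplp1 (0.148) and Tmem223 (0.151). Of the other enzymes Gpx4 came at rank 27, Prdx5 at 168, Prdx2 at 423 and Sod1 at 983. For Cat the nearest were B3galnt2 (0.0659), Strn3 (0.0681), Plcb4 (0.0726), Arhgap17 (0.0749) and Gbe1 (0.0767). These distances describe 7 arrays that share 1 slide and carry no test.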

How the data were processed

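RNA from 7 cerebella was run on 1-colour Agilent arrays, per the labels. The deposited scanner tables give linear intensity per spot, with 0 or 1 flag scores, and, per the file headers, came from version 10.7.3.1 of Agilent's Feature Extraction. The authors also deposited normalized intensities, whose columns name a group but no sample. How they were normalized is not stated in the sources used here.

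Main values were log2 processed (background-subtracted) signals less the array's own 75th percentile, which was 1136 to 2085 intensity units, lowest on MDD 3. Control spots and outlier-flagged spots were dropped, and the spots of each probe averaged. A probe was kept (22255 of 30367) if at least 50% of its spots exceeded background clearly on 3 or more of the 7 arrays. Per array 74.1% to 79.6% of spots did so, and 0 were saturated. Accessions were named through RefSeq's GRCr8 gene table (18355 probes, 15443 genes), and a gene's brightest probe represented it. Array number limits the precision.

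The diets were compared by limma 3.58.1 under R 4.3.3 (lmFit, eBayes, two-sided tests, 5 residual and 8.4 total degrees of freedom), with Benjamini-Hochberg adjusted p over 19991 features. On simulated data with this design and 19991 features, 39 of 100 genes shifted by 1 log2 unit were found, 2 of 100 shifted by 0.5, and 4 calls were false. The simulation left 19791 features unchanged and gave both groups the same spread. In the data 20.6% of features were called and the MDD SD was larger for 72.2%. The simulated shares therefore do not carry over to the calls reported here. Other settings were quantile normalization, median scaling, normexp (offset 50, on median signals because the tables used hold no mean signal), the authors' table, other probe filters, probe means, removal of length and signal trends (splines of 4 degrees of freedom per array), blocks for replicate number or slide row, and leaving out each pup.

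The 10 genes and all lists were chosen with earlier results of these data known. Named are all 10 genes, the pathway genes past the threshold, from each marker list the 3 brightest and up to 2 past the threshold by smallest p, and the 5 nearest profiles to Gpx1 and Cat. Other pathway genes were named for their known role, after their values were seen. A few genes picked by the rule are left out of the text.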

Additional observations from a re-analysis of the deposited data

Results flagged for a closer look

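Among the 11 probes of the 10 genes, the 4 CTRL values of Sod2 held a single pup far from the others. CTRL 1 read 0.46 and the rest 0.13 to 0.19, so that its gap to the nearest of them was 0.842 of the group's whole range. Chance alone sets apart a sample in about 1 of 20 such groups.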

How the results depend on the processing

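Gpx1, Gpx4 and Cat were called in all 16 analyses made without a block, with differences of 1.16 to 1.74, 0.57 to 1.39 and -0.81 to -0.49. Prdx5 was called in 14, Sod1 in 10 and Prdx2 in 8. Of 170 re-computed differences of the 10 genes, 139 kept direction and side of the threshold, 28 kept direction only, and 3 reversed, all of Prdx1: -0.058 after quantile normalization, -0.073 with the trends removed, and -0.155 without MDD 3 (range without single pups -0.155 to 0.250). The cause was not tested.

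Among the 10 genes, the 5 higher calls became 3 after quantile normalization, in the authors' table and without the filter, and 2 with the trends removed. Over everything, 2526 higher and 1592 lower calls became 1193 and 404 without the filter and 799 and 575 with the trends removed, and 2301 and 871 with normexp. Pathway calls, 24 higher and 0 lower, became 8 higher without the filter and 13 higher with 3 lower with the trends removed, and 1 was lower after quantile normalization, in the authors' table and with the mean over probes, and 2 with probes detected on all 7 arrays.

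Leaving out each pup gave 783 to 2904 higher and 229 to 2372 lower in all, 2 to 5 higher and 1 to 1 lower among the 10 genes (2 higher without CTRL 4, 3 without CTRL 3), and 5 to 28 higher and 0 to 3 lower among pathway genes. Fewest pathway calls came without CTRL 4.

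Deviations of same-numbered pups from their group means correlated at 0.095, -0.179 and 0.223. Differently numbered pups were not compared, so these values cannot tell whether the replicate number pairs the pups. With the number as a block, which drops CTRL 4 and leaves 6 arrays, limma called 0 higher and 0 lower in all, among the 10 genes and among pathway genes. Then 6222 of all features, 6 of the 10 genes and 28 pathway genes had an unadjusted p under 0.05, and the 6 genes' adjusted p was 0.0634 to 0.0911. With the slide row as a block limma called 0 higher and 1 lower in all and 0 of the 10 and of the pathway genes, with 4071, 6 and 18 at an unadjusted p under 0.05.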

Other observations

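The SD of the MDD pups was larger than that of the CTRL pups for 10 of 10 genes, beside 72.2% of all features. It was 0.47 against 0.04 for Gpx4, but 0.15 against 0.12 for Cat and 0.17 against 0.13 for Prdx6. The 10 genes share the same 7 arrays. This was noticed in the data and was not tested.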
